A study of Mus musculus with 9 samples.

Results

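The genes of heme uptake and breakdown are 7 genes taken by name from the 33586 entries of the expression table: Cd163, Lrp1, Slc48a1, Hmox1, Hmox2, Blvra and Blvrb. All 7 were found, and 6 passed the filter on low values, an FPKM (mapped fragments scaled to transcript length and library total) of at least 1 in 3 or more libraries. These 6 were above 1 FPKM in all 9 libraries, so that none passed through a single group. Cd163 did not pass. After bleeding into tissue, haemoglobin from lysed red cells is bound by haptoglobin and free heme by hemopexin. CD163 and LRP1 are known as the receptors through which macrophages and other cells take up these complexes, and SLC48A1 (HRG1) carries heme out of the lysosome. Heme oxygenases then open the heme ring, which releases iron, carbon monoxide and biliverdin, and biliverdin reductases turn biliverdin into bilirubin.

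Total RNA of mouse brain was sequenced in 9 libraries, 3 labelled as control, 3 as experimental and 3 as intervention group. The haemorrhage was made by injecting collagenase, an enzyme that breaks vessel walls, and the tissue came from around the haematoma. The series title names a tetrahedral nucleic acid material carrying the microRNA miR-124 as the treatment. No label states the agent given to each group, whether the control had a haemorrhage, when tissue was taken, or the strain, sex and age of the mice. It is also not stated whether the 3 replicates of a group are separate animals or pools, so that p-values measure only the spread between these samples, which may be technical. Markers of neurons (summed FPKM of 8 genes 974 to 1026 in control), astrocytes and oligodendrocytes were present in every library. The values are FPKM without counts, and sequencing depth is therefore unknown. Differences are given as log2 fold changes of FPKM + 1 with the SE from 1 limma model over the 9 libraries, with Benjamini-Hochberg adjustment over 14570 tested genes and a threshold of 0.05.

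Of the 6 tested genes, 4 were higher in the experimental than in the control group and 0 were lower: Hmox1, Blvrb, Lrp1 and Slc48a1. Over all tested genes, 37.2% passed the test in either direction and 19.9% were higher in the experimental group. For these 4 genes, all 3 experimental libraries lay above all 3 control libraries, and libraries of both groups were apart for 51.1% of all tested genes. In the intervention group 3 of the 6 were higher than in control, Hmox1, Blvrb and Lrp1, where 28.3% of all tested genes passed in either direction and 16.9% were higher. In this comparison 4 of the 6, Slc48a1 included, had no overlap between libraries, against 44.1% of all tested genes. Between the intervention and experimental groups 0 of the 6 passed, as did 0% of all tested genes in limma, although 1352 genes had an unadjusted p under 0.05 and quantile normalization called 35. Only Hmox1, 1 of the 6, had no overlap between the libraries of these groups, against 13.2% of all tested genes. The median log2 fold change of the 6 was 0.37, -0.10 and 0.27 in these 3 comparisons, beside -0.03, 0.01 and -0.00 over all tested genes. The comparisons share libraries, so that their values below stand side by side and are not independent of each other.

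**Figure D1:**
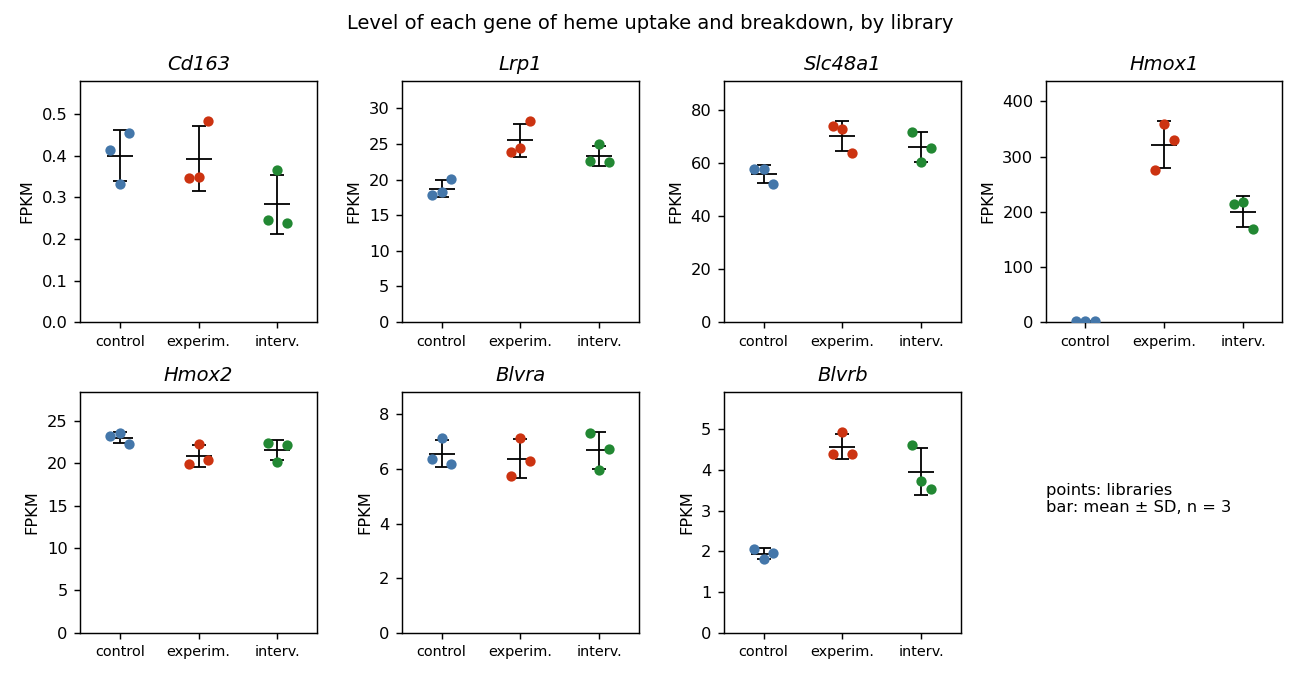
Level in FPKM of the 7 genes in each library (points; linear axes starting at 0), with the mean and SD of 3 libraries per group (bars). Hmox1 lay at 1.96 to 2.61 in control and at 169 or more in the 6 other libraries, Blvrb, Lrp1 and Slc48a1 were lowest in the 3 control libraries, and Hmox2, Blvra and Cd163 overlapped between control and experimental libraries.

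**Figure D2:**
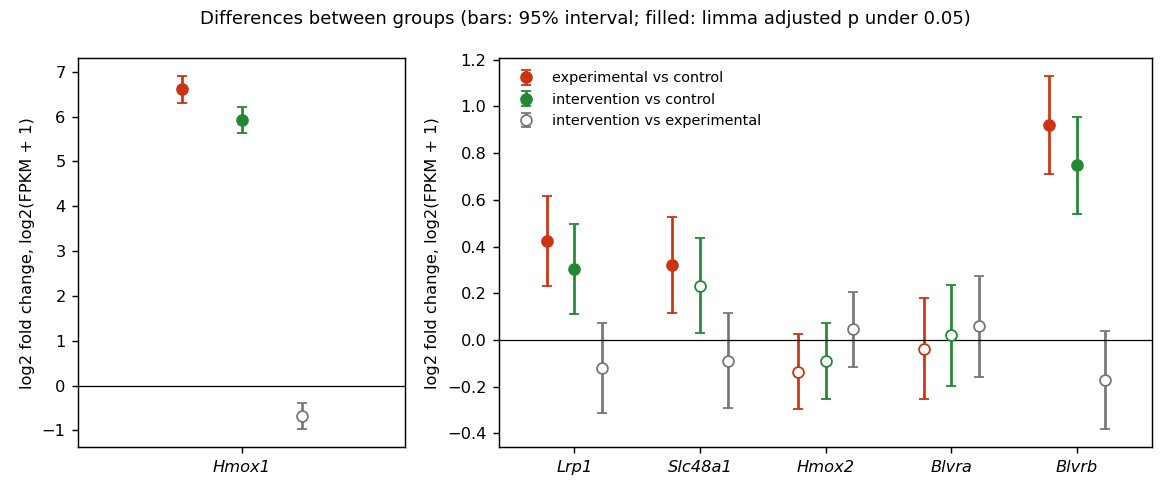
Log2 fold change of FPKM + 1 of the 6 tested genes in the 3 comparisons, with 95% confidence intervals from limma. Hmox1 stood at 6.61 and 5.93 against control and at -0.68 between the intervention and experimental groups, while Hmox2 and Blvra had intervals that include 0 in all 3 comparisons.

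The plasma proteins that bind haemoglobin and heme were listed at low levels in this tissue. Hp, which encodes haptoglobin, had a level of 0.192 ± 0.199 FPKM in control, 0.783 ± 0.137 in experimental and 0.589 ± 0.112 in intervention libraries (SD, n = 3). Hpx, which encodes hemopexin, had 0.101 ± 0.0914, 0.691 ± 0.204 and 0.356 ± 0.126 FPKM in the same order. Neither gene passed the filter, and both are named here after their values were seen. For both genes the control libraries lay below all libraries of the other groups (exact permutation test, two-sided, p = 0.1, the smallest that 3 against 3 libraries can give). The intervention and experimental libraries overlapped for both (exact permutation p = 0.2 for each).

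Cd163 (ENSMUSG00000008845.9, chr6:124304656-124330527 in mm10, plus strand), the receptor for haemoglobin bound to haptoglobin, stayed below 0.5 FPKM in every library. Its level was 0.414, 0.333 and 0.455 FPKM in the control libraries, 0.346, 0.349 and 0.483 in the experimental and 0.246, 0.365 and 0.239 in the intervention libraries. Control and experimental libraries covered the same range, and the lowest of the 9 values came from 2 intervention libraries. Exact permutation tests gave p = 1 for experimental against control, p = 0.3 for intervention against experimental and p = 0.2 for intervention against control. Cd163 is itself used as a marker of border-associated macrophages, the resident macrophages of the meninges and vessels. The summed FPKM of the 8 other markers of these cells was 2.57 to 2.78 in control, 20.2 to 24.0 in experimental and 13.03 to 14.8 in intervention libraries. The 6 of these markers that passed the filter all had control means below 1 FPKM and passed through the groups where they were high, so that no count of them is given. Lyve1, which did not pass, overlapped between the groups as Cd163 did, with means of 0.351, 0.326 and 0.300 FPKM (exact permutation p = 0.8 for experimental and p = 0.7 for intervention against control). Cd163 per summed FPKM of these markers, a ratio chosen after the values were seen, was 0.151 ± 0.0222 in control, 0.0173 ± 0.00297 in experimental and 0.0205 ± 0.00366 in intervention libraries (SD, n = 3). Much of the change in this marker sum was Pf4, which went from a mean of 0.675 FPKM in control to 10.07 in experimental libraries. The ratio follows from the levels already given, is not a level per cell, and was not tested further.

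Lrp1 (ENSMUSG00000040249.15, chr10:127538161-127621148, minus strand), a large receptor of the LDL receptor family that takes up hemopexin with heme among many other ligands, was higher in the experimental group. Its level was 17.9, 18.2 and 20.1 FPKM in control, 23.9, 24.4 and 28.2 in experimental and 22.6, 24.9 and 22.5 in intervention libraries. All control libraries lay below all others, and the other groups overlapped. The log2 fold change was 0.42 ± 0.09 (adjusted p = 0.0041) for experimental against control and 0.30 ± 0.09 (adjusted p = 0.0267) for intervention against control. The comparison of intervention with experimental gave -0.12 ± 0.09 (adjusted p = 0.784, 95% confidence interval -0.31 to 0.07). With values rescaled to TPM (transcript levels rescaled to the same total in every library), neither comparison of Lrp1 with control passed: the log2 fold change was 0.28 (adjusted p = 0.0534) for experimental and 0.16 (adjusted p = 0.243) for intervention. This scaling moved the median of all genes to -0.18 and -0.15, relative to which Lrp1 stood at 0.46 and 0.31. The call against control in the intervention group was also lost without control replicate 1 (adjusted p = 0.09), control replicate 2 (0.082), intervention replicate 1 (0.0514) or intervention replicate 2 (0.0816).

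Slc48a1 (ENSMUSG00000081534.3, chr15:97778520-97792692, plus strand), the heme transporter HRG1, had the highest level of the 7 genes in control libraries. Its level was 57.8, 57.8 and 51.8 FPKM in control, 74.0, 72.5 and 63.7 in experimental and 71.6, 60.5 and 65.4 in intervention libraries. The control libraries were below all others, and experimental and intervention libraries overlapped. Slc48a1 was higher in the experimental than in the control group by a log2 fold change of 0.32 ± 0.09 (adjusted p = 0.0208). The comparison of intervention with control gave 0.23 ± 0.09 (adjusted p = 0.0846) and that of intervention with experimental -0.09 ± 0.09 (adjusted p = 0.886, 95% confidence interval -0.29 to 0.12). The call in the experimental group was lost without control replicate 3 (adjusted p = 0.0747), experimental replicate 1 (0.0677) or experimental replicate 2 (0.0639), and on the TPM scale (log2 fold change 0.16, adjusted p = 0.109, or 0.35 relative to the median of all genes). Quantile normalization passed Slc48a1 also in the intervention group, at 0.25 (adjusted p = 0.0323). Slc48a1 shares 29 exon bases with Hdac7 on the other strand, which was itself higher in the experimental group (0.40 ± 0.09, adjusted p = 0.00865), and the sources do not say whether counting used the strand. Reads of this stretch then cannot be told apart.

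Hmox1 (ENSMUSG00000005413.8, chr8:75093621-75100589, plus strand) encodes the inducible heme oxygenase HO-1. Its level was 2.61, 2.31 and 1.96 FPKM in the control libraries, 276, 359.7 and 329 in the experimental and 215, 218 and 169 in the intervention libraries. The 3 groups did not overlap: control was lowest, intervention between, and experimental highest. Against control, Hmox1 had the largest log2 fold change of FPKM + 1 of all 14570 tested genes in the experimental group, 6.61 ± 0.13 (adjusted p = 1.05e-08). This corresponds to 97.6-fold on the scale of FPKM + 1 and to 140.1-fold between mean FPKM. The rank belongs to that scale, which understates the change of low genes. Between mean FPKM, genes with very low control levels, such as Cd5l and Msr1 below, had larger folds. Among all 33586 entries ordered from the highest FPKM, Hmox1 stood at places 10529 to 11458 in control, 56 to 79 in experimental and 101 to 139 in intervention libraries. In the intervention group it was 5.93 ± 0.13 above control (adjusted p = 2.93e-08).

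Between the intervention and experimental groups the log2 fold change of Hmox1 was -0.68 ± 0.13, 0.624-fold, with a 95% confidence interval of -0.98 to -0.38. The unadjusted p was 0.000497 and the adjusted p 0.101, which misses the threshold, and over the alternatives the adjusted p ran from 0.0762 to 0.37. All 3 intervention libraries were below all 3 experimental libraries (exact permutation p = 0.1).

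Hmox2 (ENSMUSG00000004070.15, chr16:4726361-4766742, plus strand) encodes HO-2, the heme oxygenase made constitutively, with a high level in neurons. Its level was 23.3, 23.6 and 22.3 FPKM in control, 19.9, 22.3 and 20.5 in experimental and 22.4, 20.2 and 22.2 in intervention libraries. The 3 groups overlapped within a range of 19.9 to 23.6 FPKM. The log2 fold change was -0.14 ± 0.07 (adjusted p = 0.168, 95% confidence interval -0.30 to 0.03) for experimental and -0.09 ± 0.07 (adjusted p = 0.373) for intervention against control. On the TPM scale these were -0.30 (adjusted p = 0.0106) and -0.24 (adjusted p = 0.033), past the threshold, and -0.12 and -0.10 relative to the median of all genes. Hmox2 shares 892 exon bases with Cdip1 on the other strand, which was lower in the experimental than in the control group (17.1 against 22.7 FPKM, log2 fold change -0.39 ± 0.07, adjusted p = 0.00262). Without knowledge of strand, reads of these bases cannot be told apart.

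As FPKM is a level per length, the heme oxygenases can be set against each other. Of the 2217 exon bases of Hmox2, 892 are shared with Cdip1. Its level, and the shares and ratios below, may therefore hold reads of Cdip1 or lack some of Hmox2. Hmox1 made up 9.03 ± 1.01% of the summed FPKM of Hmox1 and Hmox2 in control, 93.9 ± 0.513% in experimental and 90.2 ± 1.60% in intervention libraries (SD, n = 3). By these values Hmox2 was the main heme oxygenase transcript in control, and Hmox1 in both other groups. The summed level was 25.3 ± 0.943, 343 ± 43.7 and 222 ± 26.9 FPKM. The ratio of Hmox1 to Hmox2 was 0.112, 0.0979 and 0.0880 in control, 13.8, 16.1 and 16.1 in experimental and 9.58, 10.8 and 7.62 in intervention libraries. The groups did not overlap in this ratio (exact permutation p = 0.1 for each of 3 comparisons), and the log2 difference between intervention and experimental was -0.73.

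**Figure D3:**
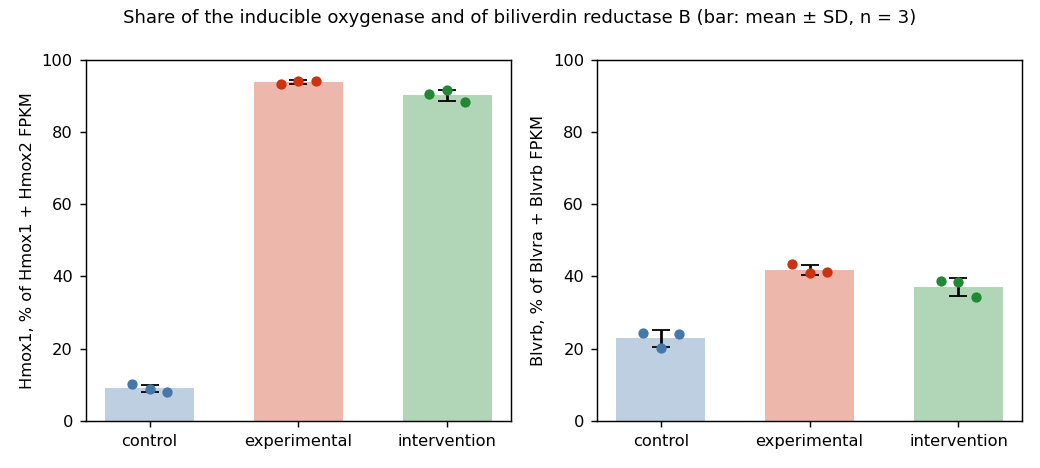
Share of Hmox1 in the summed FPKM of Hmox1 and Hmox2, and of Blvrb in that of Blvrb and Blvra, in percent, for each library (points) with the mean and SD of 3 libraries (bars). Hmox1 took 9.03% in control and over 88% in every other library, and Blvrb took 22.9% in control, 41.8% in experimental and 37.2% in intervention libraries.

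Blvra (ENSMUSG00000001999.15, chr2:127070665-127097084, plus strand), the biliverdin reductase that makes the usual bilirubin of adult tissue, passed in no comparison. Its level was 6.38, 7.14 and 6.18 FPKM in control, 5.73, 7.13 and 6.28 in experimental and 7.33, 5.97 and 6.74 in intervention libraries. All groups overlapped, and the log2 fold change of experimental against control was -0.04 ± 0.10 (adjusted p = 0.783, 95% confidence interval -0.25 to 0.18). The other comparisons gave 0.06 ± 0.10 (intervention against experimental, adjusted p = 0.945) and 0.02 ± 0.10 (intervention against control, adjusted p = 0.899), and the sign of these small values turned in some alternatives.

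Blvrb (ENSMUSG00000040466.16, chr7:27447978-27466144, plus strand), a flavin and biliverdin reductase that is abundant in red cells, was higher in both groups than in control. Its level was 2.07, 1.81 and 1.95 FPKM in control, 4.39, 4.93 and 4.39 in experimental and 4.62, 3.74 and 3.52 in intervention libraries. The control libraries were below all others, while experimental and intervention libraries overlapped. The log2 fold change against control was 0.92 ± 0.09 (adjusted p = 5.93e-05) for experimental and 0.75 ± 0.09 (adjusted p = 0.000393) for intervention libraries, and the mean FPKM was 2.35 and 2.04 times that of control. Intervention against experimental gave -0.17 ± 0.09 (adjusted p = 0.658, 95% confidence interval -0.38 to 0.04). Summed FPKM of 8 red cell markers was 55.7, 142 and 50.3 in the control libraries, 38.7 to 61.1 in experimental and 27.6 to 39.0 in intervention libraries. Of the 4 tested, 0 passed in the experimental group and 4 were lower in the intervention group than in control. In the latter comparison 11.4% of all tested genes were lower. The part of these markers in the result for Blvrb was not tested.

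Blvrb made up 22.9 ± 2.33% of the summed FPKM of both reductases in control, 41.8 ± 1.36% in experimental and 37.2 ± 2.47% in intervention libraries (SD, n = 3). The ratio of Blvrb to Blvra was 0.298 ± 0.0386, 0.720 ± 0.0407 and 0.593 ± 0.0612, and did not overlap between any of the groups (exact permutation p = 0.1 for each of 3 comparisons). The sum of the reductases was 8.51, 10.95 and 10.64 FPKM in the 3 groups. Hmox1 per summed FPKM of Blvra and Blvrb was 0.270 ± 0.0356 in control, 29.3 ± 1.88 in experimental and 19.0 ± 3.11 in intervention libraries, and these groups did not overlap (exact permutation p = 0.1 for each comparison).

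Promoter windows in RefSeq (GRCm38.p6, the build mm10 is made from) were matched for 5 of the 7 genes, with 8 windows in all. No window was matched for Hmox1 and Slc48a1. The 250 bases before the start site are shown for Blvra and Blvrb, because of these partner enzymes Blvrb passed the test and Blvra did not, and for Lrp1, a receptor that was higher in both groups. Capitals mark letters matching TGACNNNGC, the core of the antioxidant response element that NRF2 binds, and CCGCCC, the GC box, each searched on both strands but printed in capitals as they read 5′ to 3′ on the gene's strand. The motifs share no base in these windows. Over 32851 promoter windows of the same length, 10.2% hold the first motif and 32.7% the second. The windows lie at chr2:127070407-127070656 (plus strand) for Blvra, chr7:27447728-27447977 (plus strand) for the first start of Blvrb and chr10:127621149-127621398 (minus strand) for Lrp1.
Blvra: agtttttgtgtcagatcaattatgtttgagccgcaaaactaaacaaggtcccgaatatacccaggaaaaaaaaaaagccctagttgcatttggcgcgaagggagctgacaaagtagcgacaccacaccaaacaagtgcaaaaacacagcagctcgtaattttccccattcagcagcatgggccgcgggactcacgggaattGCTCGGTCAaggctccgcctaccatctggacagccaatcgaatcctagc
Blvrb: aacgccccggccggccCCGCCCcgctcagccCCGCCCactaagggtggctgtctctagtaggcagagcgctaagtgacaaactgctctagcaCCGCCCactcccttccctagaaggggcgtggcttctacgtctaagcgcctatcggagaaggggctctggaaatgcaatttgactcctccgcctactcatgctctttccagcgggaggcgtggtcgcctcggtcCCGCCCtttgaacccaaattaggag
Lrp1: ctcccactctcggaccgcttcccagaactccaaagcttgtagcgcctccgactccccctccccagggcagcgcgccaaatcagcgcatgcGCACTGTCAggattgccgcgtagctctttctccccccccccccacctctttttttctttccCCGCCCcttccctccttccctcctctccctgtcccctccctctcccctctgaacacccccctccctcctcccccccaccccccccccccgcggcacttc
The Blvra window holds 1 antioxidant response element core, on the opposite strand 49 to 41 bases before the start, and 0 GC boxes. The Blvrb window shown holds 0 of the first motif and 4 GC boxes, with 62.0% G and C and 18 CpG sites, against 48.8% and 12 in Blvra. Another Blvrb window, at chr7:27452168-27452417, is not shown. It holds 0 of either motif, with 48.8% G and C and 3 CpG sites. The Lrp1 window holds 1 antioxidant response element core on the opposite strand, 160 to 152 bases before the start, 1 GC box, and 67.2% G and C, where the median of all windows is 52.4%. The first motif thus stood in the window of a reductase that did not pass and of a receptor that was higher, and these matches are descriptions of letters, not of binding.

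Regulators and electron donors of heme oxygenase and biliverdin reductase were counted from a list of 12 genes, of which 10 were tested. Of these, 5, among them the electron donor Por, were higher and 2 lower in the experimental than in the control group, with a median log2 fold change of 0.25. Counts of each list and marker set below stand beside the shares over all tested genes. These were 19.9% higher and 17.3% lower in the experimental group, and 16.9% and 11.4% in the intervention group, against control. Nfe2l2, which encodes the activator NRF2, had 4.89 FPKM in control, 13.9 in experimental and 11.5 in intervention libraries (means of 3). Its log2 fold change was 1.34 ± 0.09 (adjusted p = 4.17e-06) in the experimental group and 1.08 ± 0.09 for intervention against control. Bach1, which encodes a heme-sensing repressor of Hmox1, was higher as well, at 2.05, 4.11 and 3.39 FPKM (0.74 ± 0.14, adjusted p = 0.00239 in the experimental group). Maff, a small MAF partner, was at 0.61 ± 0.13 (adjusted p = 0.00469; control mean below 1 FPKM), and Nr1d2, a nuclear receptor that binds heme, was lower at -0.36 ± 0.08 (adjusted p = 0.00735). Activator and repressor transcripts were thus both higher. On the TPM scale the counts were 3 higher and 2 lower, and without control replicate 1, control replicate 2, experimental replicate 2 or experimental replicate 3 they were 3 higher and 1 lower, with Mafk, Nr1d1 and Por lost. In the intervention group 3 were higher and 2 lower than in control, which became 1 and 1 without control replicate 1, control replicate 2 or intervention replicate 2, 2 and 1 without intervention replicate 1, and 3 and 1 when any experimental library was left out.

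Of 10 listed targets of NRF2 other than Hmox1, 9 were tested, and 6 were higher and 0 lower in the experimental group, with a median log2 fold change of 0.55. Prdx1, a peroxidase, rose from 32.7 to 76.1 FPKM (1.19 ± 0.10, adjusted p = 1.99e-05). Slc7a11, the cystine importer, followed at 0.76 ± 0.09 (adjusted p = 0.000201), G6pdx, which supplies NADPH, at 0.64 ± 0.08 (0.000304), and Txnrd1, thioredoxin reductase, at 0.65 ± 0.09 (0.000491). Nqo1, Srxn1 and Gclc did not pass, at 0.18, -0.04 and -0.05. The same count, 6 higher and 0 lower, was seen in the intervention group against control, where it was 3 higher on the TPM scale. All of these were far below the log2 fold change of Hmox1.

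Iron set free from heme is stored in ferritin or exported, and 11 of 12 listed genes of this step were tested: 5 were higher and 1 lower in the experimental group. Ftl1, the ferritin light chain, rose from 124 to 823 FPKM (2.72 ± 0.14, adjusted p = 8.02e-07) and Slc40a1, the iron exporter ferroportin, from 1.2 to 4.55 FPKM (1.33 ± 0.07, adjusted p = 8.67e-07). Cp, the ferroxidase ceruloplasmin, was at 0.88 ± 0.12 (adjusted p = 0.000336) and Aco1, which encodes an iron regulatory protein, at 0.45 ± 0.07 (adjusted p = 0.000645). The list's median log2 fold change was 0.13, with 3 lower genes on the TPM scale. The intervention group also had 5 higher and 1 lower against control, the lower gene, Tfrc, being lost without control replicate 1, intervention replicate 1 or intervention replicate 2. On the TPM scale these counts were 4 and 2.

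Heme synthesis showed no common direction: of 8 tested genes out of 9, 2 were higher and 1 lower in the experimental group, with a median of -0.10. This lies near the share over all tested genes, of which 37.2% passed in either direction. Alas1, the rate-limiting enzyme outside red cell precursors, fell from 8.06 to 5.63 FPKM (-0.45 ± 0.08, adjusted p = 0.00264), while Ppox, which acts late in the pathway, was higher (0.42 ± 0.10, adjusted p = 0.0107). On the TPM scale 2 were higher and 4 lower. Of 15 genes of heme binding and transport other than the 7, 11 were tested, with 3 higher, 2 lower and a median of 0.07. Abcg2, an exporter of heme and other compounds, was at 0.48 ± 0.08 (adjusted p = 0.00104), Flvcr2 at 0.49 ± 0.11 (0.00724), Slc46a1, a folate and heme importer, at 0.41 ± 0.11 (0.0142), and Slc22a17, a lipocalin receptor, was lower at -0.38 ± 0.10 (0.0174). On the TPM scale 2 transport genes were higher and 3 lower. The count of lower transport genes was 1 without control replicate 1 or intervention replicate 2, and 0 without control replicate 3 or experimental replicate 1. Against control, the intervention group had 2 higher and 1 lower gene of synthesis and 3 higher and 1 lower gene of transport, which on the TPM scale became 0 higher and 2 lower, and 1 higher and 3 lower. Of the 3 synthesis genes, 0 passed without control replicate 2, 2 without control replicate 3 and 1 without control replicate 1, intervention replicate 1 or intervention replicate 2. Of the 4 transport genes, 2 passed when any control library was left out and 1 without intervention replicate 1 or intervention replicate 2.

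Among 16 scavenger and LDL receptor family genes other than Cd163 and Lrp1, 14 were tested, and 8 were higher and 2 lower in the experimental group, with a median log2 fold change of 0.42. Msr1, a scavenger receptor of macrophages, rose from 0.0253 to 3.69 FPKM (2.19 ± 0.08, adjusted p = 2e-07), and Cd5l, a secreted scavenger protein of macrophages, from 0.0081 to 9.94 FPKM (3.41 ± 0.16, adjusted p = 6.91e-07). Stab1 rose from 1.27 to 14.5 FPKM (2.76 ± 0.14, adjusted p = 8.48e-07), and Cd36, the fatty acid and oxidized LDL receptor, from 0.507 to 4.21 FPKM (1.81 ± 0.16, adjusted p = 2.08e-05). Msr1, Cd5l and Cd36 are among the 8 higher genes, but had control means below 1 FPKM and passed the filter through the libraries where they were high. The count of higher genes and the median of the list therefore lean upward. Cd163 did not pass the filter, so that these genes are no contrast with it. On the TPM scale 7 were higher and 4 lower. In the intervention group 7 were higher and 2 lower than in control. A single lower gene remained in the experimental group without control replicate 1, control replicate 3 or experimental replicate 1, and in the intervention group when any library of that group or of control was left out. In no list did a gene pass between the intervention and experimental groups (quantile normalization called 1 iron gene and 1 scavenger gene lower), and the medians of the 6 lists lay between -0.20 and 0.03.

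**Figure D4:**
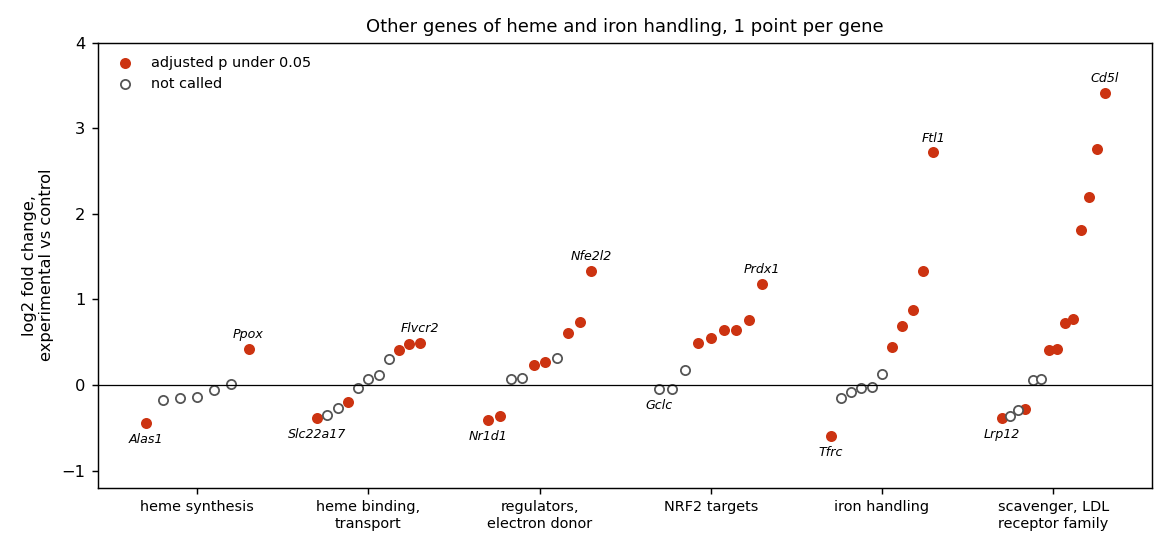
Log2 fold change of FPKM + 1 between the experimental and control groups for the tested genes of the 6 lists (1 point per gene, with 1 gene not shown; filled points had an adjusted p under 0.05). In 4 of the lists the filled points lay mostly above 0, with Ftl1 at 2.72 and Cd5l at 3.41, and those of heme synthesis and of heme binding and transport lay on both sides within 0.5 of it.

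In bulk tissue, fewer cells of a type and less RNA per cell cannot be told apart, and markers of several cell types moved with Hmox1. All 9 tested markers of microglia and macrophages were higher in the experimental than in the control group. Their summed FPKM was 60.1 to 66.5 in control, 419.8 to 469.7 in experimental and 272 to 342 in intervention libraries. The 6 monocyte markers summed to 5.08 to 5.31, 29.9 to 37.1 and 18.7 to 23.4 FPKM, of which only Fn1 had a control mean above 1 FPKM. Most of each sum was Fn1, with means of 4.04, 19.1 and 12.2 FPKM in the same order. All 6 endothelial markers were higher in the experimental than in the control group, with sums of 54.3 to 58.8, 115.8 to 139 and 96.0 to 109 FPKM, and 4 of the 6 were higher in the intervention group than in control. Markers of neutrophils summed to 1.51 to 8.82, 12.3 to 13.9 and 6.64 to 10.05 FPKM, but did not move as a set. Csf3r went from a mean of 1.21 FPKM in control to 9.10 in experimental libraries. S100a8 and S100a9 overlapped between these groups, and S100a9 did not pass (limma adjusted p = 0.237). Mean Camp (0.346 to 0.0431 FPKM) and Retnlg (0.358 to 0.136) were lower, and Ly6g was at 0 in all experimental and intervention libraries. The part of these cells in the results for the 7 genes was not tested.

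Ratios to these sums were chosen after the values were seen. Hmox1 per summed FPKM of microglia and macrophage markers was 0.0365 ± 0.00494 in control, 0.716 ± 0.0679 in experimental and 0.632 ± 0.00923 in intervention libraries (SD, n = 3), 19.7-fold higher in experimental than in control (exact permutation p = 0.1). The other 3 genes that passed had smaller folds than the marker sum. For Blvrb the same ratio was 0.0310 in control, 0.0102 in experimental and 0.0125 in intervention libraries. In the same order it was 0.887, 0.157 and 0.210 for Slc48a1 and 0.298, 0.0568 and 0.0743 for Lrp1. For each of the 3, the intervention mean of the ratio lay above the experimental mean, while the mean FPKM lay below it. These ratios depend on which markers are summed. Between control and experimental means, Lyz2 went from 6.34 to 172.7 FPKM and Cd68 from 4.42 to 71.3. P2ry12 went only from 12.9 to 33.4 FPKM and Tmem119 from 9.64 to 22.4. Astrocyte markers, of which all 7 were higher, summed to 383 to 401, 897 to 1267 and 892 to 1074 FPKM. Lrp1 per summed FPKM of these astrocyte markers was 0.0474, 0.0241 and 0.0238. Much of the change in this sum was Gfap, which went from a mean of 37.9 FPKM in control to 545 in experimental libraries. Gja1 went only from 16.0 to 27.3 FPKM and Aldoc from 201 to 255. Of 8 neuron markers 7 were lower in the experimental than in the control group, with sums of 974 to 1026, 625 to 698 and 715 to 748 FPKM, beside the level of Hmox2 described above.

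**Figure D5:**
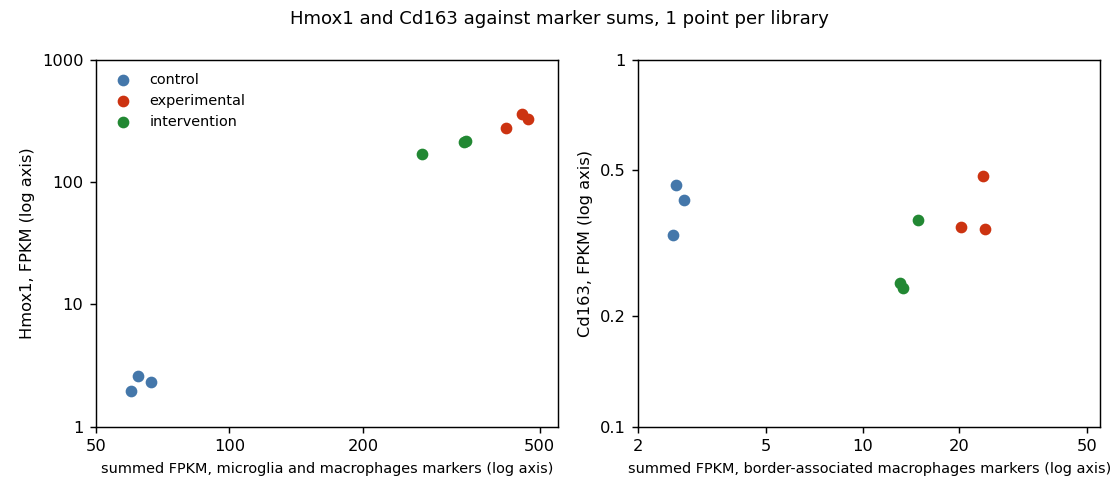
Left, Hmox1 in FPKM against the summed FPKM of 9 microglia and macrophage markers, 1 point per library, on log axes; right, Cd163 against the summed FPKM of markers of border-associated macrophages, on log axes. Hmox1 and its marker sum were lowest in control and highest in experimental libraries. Cd163 lay between 0.239 and 0.483 FPKM. The marker sum on the right ran from 2.57 to 24.0, and its markers all had control means below 1 FPKM.

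Profiles over the 9 libraries were compared as the root mean square difference between z-scored log2(FPKM + 1) values, where 0 is an identical shape. This is a description over libraries that share the group differences. Closest to Hmox1 were Plin2, a lipid droplet protein (0.0351, with 1.53, 20.1 and 15.4 FPKM in control, experimental and intervention libraries), Cd53 (0.0553), Ctss (0.0596), Ctsd (0.0599) and Fcgr3 (0.0651). Ctss and Ctsd encode lysosomal cathepsins, and Cd53 and Fcgr3 surface proteins of leukocytes. Among the 6 tested genes, Blvrb was closest to Hmox1 (0.203), then Lrp1 (0.432) and Slc48a1 (0.561), with Blvra (1.36) and Hmox2 (1.73) far off. Closest to Blvrb were S100a16 (0.0882), Fabp5 (0.0883) and Slc9a3r1 (0.1002), to Slc48a1 Bax (0.147), Gas1 (0.165) and Ubtd1 (0.234), and to Lrp1 Kank2 (0.139), Idua (0.162) and Plekhg2 (0.175). For the genes that did not pass, the nearest profiles were less alike. This is no result apart from the test, since genes that pass share a group difference with many others. Nearest were Timm10 (0.252), Wdr74 (0.285) and Serpinb1a (0.298) for Hmox2, and Yif1b (0.272), Ptp4a1 (0.343) and Aif1l (0.424) for Blvra.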

How the data were processed

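Total RNA of 9 mouse brain libraries was measured, and the authors deposited FPKM for each gene, as the file headers name it. The genome build was mm10, per the submitters' processing notes; the aligner, counting tool, annotation and use of strand are not stated in the sources. The low values gave no step of single reads, which leaves depth unknown and allows no counting interval. Total FPKM per library was 303394 to 351195.

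Groups follow the sample titles. Genes with at least 1 FPKM in 3 or more of 9 libraries (14570) were put on the log2(FPKM + 1) scale, which understates the change of low genes. All 9 libraries entered 1 limma model (3.58.1, with an intensity trend; R 4.3.3; degrees of freedom 6 residual, 3.53 prior), with 3 two-sided contrasts, Benjamini-Hochberg adjustment over the tested genes and a threshold of 0.05. The script was tested on simulated data. Ratios and genes under the filter were compared with two-sided exact permutation tests, which cannot go below 0.1. Their p-values, over 9 kinds of ratio in 3 comparisons, were not adjusted. Positions come from GENCODE M21 (mm10) by symbol and promoters from RefSeq.

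The 7 genes, the lists and the markers were chosen with earlier results of these data known. Named from each list were up to 4 genes with the smallest adjusted p in experimental against control, and the others were named after their values were seen. A further gene that this rule names is not reported here. By profile, the 5 tested genes nearest to Hmox1 and the 3 nearest to each other member were named, without Gm and Rik names and with a mean of at least 1 FPKM. Alternatives were other pseudocounts, filters and scalings, no trend, the replicate block, only the groups compared, and each library left out. Ratios to markers and the lists under other scalings were added after seeing the data.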

Additional observations from a re-analysis of the deposited data

How the results depend on the processing

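The number of the 7 genes called was 4, 0 and 3 (experimental against control, intervention against experimental, intervention against control), and leaving out 1 library gave 3 to 4, 0 and 2 to 3. Hmox1 and Blvrb kept their calls against control under every alternative that tested them; a filter of mean FPKM of at least 5 left Blvrb untested. The losses of Slc48a1 and Lrp1 and the gain of Hmox2 on the TPM scale stand beside those genes. That scale multiplied all values by 3.28 to 3.30 in control, 2.85 to 3.06 in experimental and 2.85 to 3.02 in intervention libraries. Why the library totals differed was not tested. Blvra, called nowhere, changed sign. With 1 library left out it ran from -0.11 to 0.026 in the first comparison, -0.0063 to 0.13 in the second and -0.041 to 0.087 in the third, where it was also -0.12 on the TPM scale and -0.0029 with quantile normalization. With 1 added to both values, log2 differences against control of Hmox1 to Hmox2 became 6.75 and 6.02, from 7.27 and 6.54, and those of Blvrb to Blvra 0.96 and 0.73, from 1.28 and 0.997, since the constant pulls low ratios together.

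Of all genes, 5415 were called in the first comparison and 4120 in the third. A mean FPKM of at least 5 gave 3354 and 2606, with fewer genes tested, and the third was 2668 without intervention replicate 1. Called genes were 2894 higher and 2521 lower in the first, but 2175 and 4661 on the TPM scale and 2531 and 3189 with quantile normalization; in the third they were 2461 and 1659, 1706 and 3622, and 2009 and 2041. Between intervention and experimental, 0 genes became 35 with quantile normalization, 8 without the trend and 1 with median-of-ratios scaling or without experimental replicate 1, experimental replicate 2 or intervention replicate 2. Deviations of same-numbered libraries had correlations of -0.536 to 0.209, and not every library correlated best with its own number. These few values, from 3 libraries per group, cannot settle whether the numbers pair the samples. With the number as a replicate block 4, 0 and 3 of the 7 genes and 4702, 0 and 3251 of all genes were called. FPKM without counts limits what can be said of Cd163, Hp and Hpx, all below 1 FPKM.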
